A study of Homo sapiens with 6 samples.

Results

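The genes described here carry the unfolded protein response and the integrated stress response, the pathways by which a cell answers misfolded protein in the endoplasmic reticulum and shortage of amino acids. The module lists 40 genes by symbol, and 39 of them were found among the 36601 genes of the deposited matrices (SLC7A5P1 was not found by symbol and has no value here). They were grouped by role into 5 sensors and first factors, 7 regulators, 9 amino acid and metabolic targets and 18 chaperones with their helpers. Regulators and metabolic targets together make the 16 genes read as the ATF4 arm, and the 18 chaperones the ATF6/XBP1 arm. All 39 genes passed the filter on low counts in rods, cones and other cells, and 38 in Müller glia, where ASNS did not.

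The cells came from retinal organoids. These were grown from the established human line WA09, embryonic stem cells that here carry a tdTomato reporter of CRX, a photoreceptor transcription factor. The organoids were 113 to 126 days old and had been broken into fragments by trituration. Transplanted samples were fragments recovered 3 days after injection under the retina of normal dogs. Cultured samples were fragments of the same organoid batch, triturated in the same way and kept in culture for 3 days. Both groups therefore share the cell line, the reporter and the trituration, and no untriturated or newly collected organoid serves as a baseline here. The work was done in 3 experiments (Sets 1, 2 and 3), and every Set gave 1 sample of either kind (n = 3 for each group). All cells derive from 1 line, and the number of dogs behind each transplanted sample is not given in the sources used here.

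When unfolded protein accumulates in the endoplasmic reticulum, it is sensed by 3 membrane proteins. IRE1 (gene ERN1) splices the RNA of XBP1 into its active form, ATF6 is cut to release a transcription factor, and PERK (gene EIF2AK3) phosphorylates the translation factor eIF2α. Phosphorylated eIF2α slows protein synthesis as a whole while it favours translation of ATF4, and other kinases that sense lack of amino acids, haem or the presence of viral RNA act at the same step, which is why this branch is called the integrated stress response. ATF4 raises transcription of regulators such as DDIT3 and TRIB3 and of genes for amino acid synthesis and uptake, whereas ATF6 and spliced XBP1 raise chaperones and the machinery that removes misfolded protein. Photoreceptors make large amounts of membrane protein for their outer segments. The sensors act through protein cleavage, splicing and phosphorylation, so the RNA level of a sensor does not report its activity, and 3′ counting does not read XBP1 splicing.

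Motifs that factors of the 2 arms bind were searched around the start sites of the members, and 5 windows that hold matches are shown as examples. RefSeq windows (GRCh38.p14) of 300 bases, from 250 before to 50 after a start site, matched 38 of the 39 genes in 55 windows, some genes having several starts. Each was searched on both strands for the endoplasmic reticulum stress element of ATF6 with NF-Y (ERSE, CCAAT and CCACG with any 9 bases between them), its variant ERSE-II (ATTGG and CCACG with any 1 base between them), the unfolded protein response element of XBP1 and ATF6 (UPRE, TGACGTGG), the cyclic AMP response element (CRE, TGACGTCA) and the composite element of C/EBP and ATF factors that ATF4 uses (CARE, TGATGNAA). UPRE and ERSE-II matches can overlap, as they do in HYOU1. The ERSE letters stood in 0.0769% of all 35116 windows and in those of 7 of the 38 genes: CALR, CANX, CRELD2, HSP90B1, HSPA5, PDIA6 and XBP1. ERSE-II stood in 0.0541% of windows and in HERPUD1, HYOU1 and SDF2L1, UPRE in 0.729% and in HYOU1, and CRE in 1.85% and in PPP1R15A. CARE, the commonest at 3.62% of windows, was found in ASNS, ATF3, CEBPG, CHAC1, HERPUD1 and SLC3A2. Of the 9 genes with an ERSE or ERSE-II match outside the sensors, all were chaperones, and 5 of the 6 genes with CARE belonged to the ATF4 arm. Many members had no match. ERSE or ERSE-II stood in 9 of the 17 chaperones with a window, and CARE in 3 of 7 regulators and 2 of 9 metabolic targets. The CARE match of SLC3A2 does not lie wholly within the 250 bases before the start. HERPUD1 alone among the 38 had letters of both arms. A match is only a run of letters, and no binding was measured here.

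The 250 bases before each start are given 5′ to 3′ on the strand of the gene, with matches in capitals. HERPUD1 (chr16:56931892-56932141 (plus strand)) has CARE on the reverse strand 176 to 169 bases before the start and ERSE-II 117 to 107 bases before it. HYOU1 (chr11:119057206-119057455 (minus strand)) has UPRE merged with ERSE-II from 188 to 175 bases before the start and a second ERSE-II from 79 to 69. HSPA5 (chr9:125241344-125241593 (minus strand)) has ERSE 66 to 48 bases before the start. HSP90B1 (chr12:103930160-103930409 (plus strand)) has ERSE in both orientations, 194 to 176 and 89 to 71 bases before the start. CHAC1 (chr15:40953221-40953470 (plus strand)) has CARE on the reverse strand 209 to 202 bases before the start.
HERPUD1: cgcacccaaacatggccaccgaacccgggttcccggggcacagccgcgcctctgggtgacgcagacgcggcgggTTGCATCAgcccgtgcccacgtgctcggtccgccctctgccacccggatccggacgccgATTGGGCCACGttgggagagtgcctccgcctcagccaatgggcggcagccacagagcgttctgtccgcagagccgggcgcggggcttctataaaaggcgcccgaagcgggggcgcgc
HYOU1: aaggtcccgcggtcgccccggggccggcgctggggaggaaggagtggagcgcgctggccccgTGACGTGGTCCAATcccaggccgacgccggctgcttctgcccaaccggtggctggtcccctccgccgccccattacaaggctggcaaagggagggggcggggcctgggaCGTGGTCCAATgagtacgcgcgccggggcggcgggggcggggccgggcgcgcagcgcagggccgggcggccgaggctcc
HSPA5: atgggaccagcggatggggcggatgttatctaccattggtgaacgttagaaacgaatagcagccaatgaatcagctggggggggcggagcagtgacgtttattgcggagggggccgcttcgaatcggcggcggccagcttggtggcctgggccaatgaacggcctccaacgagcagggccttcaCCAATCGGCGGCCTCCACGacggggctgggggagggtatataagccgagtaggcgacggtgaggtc
HSP90B1: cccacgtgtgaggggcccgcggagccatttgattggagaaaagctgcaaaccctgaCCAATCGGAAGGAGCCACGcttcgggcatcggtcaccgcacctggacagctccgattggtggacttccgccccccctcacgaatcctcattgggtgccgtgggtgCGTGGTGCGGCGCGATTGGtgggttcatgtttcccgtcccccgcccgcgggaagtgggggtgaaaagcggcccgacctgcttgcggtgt
CHAC1: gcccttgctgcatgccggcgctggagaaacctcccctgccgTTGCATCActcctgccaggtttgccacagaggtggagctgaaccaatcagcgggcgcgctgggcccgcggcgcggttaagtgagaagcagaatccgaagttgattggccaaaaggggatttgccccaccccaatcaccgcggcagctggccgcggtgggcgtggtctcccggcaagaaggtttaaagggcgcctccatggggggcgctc

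Each matrix held raw counts of unique molecular identifiers (UMIs, one per captured RNA molecule), between 6850189 and 108222149 per sample, and 690 to 15336 cells per sample passed the filters. Cones were cells with at least 3 UMIs of PDE6H and more of it than of NRL, and rods the remaining cells with at least 3 UMIs of NRL. Müller glia had at least 3 UMIs of HES5, WIF1 and TTYH1 together and met neither photoreceptor rule, and other cells were the rest. The class sums held 171 to 3074 rods, 34 to 2439 cones, 25 to 3184 Müller glia and 460 to 6972 other cells. The smallest were 31 cultured Müller glia in Set 3, 25 transplanted Müller glia in Set 2 and 34 transplanted cones in Set 2. The rod marker NR2E3 was at 102 to 301 CPM (UMIs of the gene per 1000000 UMIs of the class sum) in the rod sums, and OPN1SW, the short-wavelength opsin of cones, was at 0 to 7.92 CPM in the cone sums. The rules also overlap. Of the rods, 41 to 1344 per sample also met the Müller glia rule or had at least 3 UMIs of PDE6H, and these rods gave 49.5 to 82.8% of the UMIs of the rod sums. Of the cones, 20 to 964 per sample met a second rule and gave 60.0 to 93.0% of the UMIs of the cone sums. Fits without these cells are therefore given beside the results they touch. Median mitochondrial share in rods was 1.13 to 2.87% in cultured and 3.26 to 4.35% in transplanted samples, higher in 3 of 3 Sets. The summed level of the 6 markers of dividing progenitors, all of them detected, was 212 to 700.5 CPM in cultured and 57.6 to 133 CPM in transplanted rods, and 103 to 446 CPM in cultured and 31.3 to 98.5 CPM in transplanted cones, without overlap in either class. Myeloid markers in other cells (8 genes) summed to 1.67 to 10.9 CPM in cultured and 40.9 to 67.6 CPM in transplanted samples, and the microglial genes C1QB and C1QC were at 0 CPM in every cultured one. The 5 T and NK cell genes summed to 2.57 to 6.19 CPM in cultured and 7.42 to 22.6 CPM in transplanted rods, where CD3D and NKG7 were at 0 CPM and TRAC carried nearly the whole sum. Host-like cells, whose share of clone-named human transcripts was below the 1st percentile of the cultured cells of their Set, were 643 of 4632 in the transplanted sample of Set 3 and 29 of 690 and 216 of 7321 in the other transplanted samples. In transplanted Set 3 they were 66 of 118 Müller glia, 77 of 400 cones and 112 of 1277 rods. Without them the UMIs of that sample fell from 1151900 to 382961 in the glial sum. They fell from 11997871 to 8799063 in the cone sum and from 18638540 to 13996668 in the rod sum. In transplanted Set 2 host-like cells were 7 of 25 Müller glia. The part of these markers, of mitochondrial share and of host cells in the results below was not tested, except where a fit without such cells is given. Sums compare RNA per class, so fewer expressing cells and less RNA per cell cannot be told apart. No more than 41 cell barcodes were shared by any pair of samples, at most 0.870% of the smaller one.

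In rods, 4 of the 39 genes were higher in transplanted samples and 0 were lower (edgeR quasi-likelihood test with the Set as a block, Benjamini-Hochberg adjusted p under 0.05), against 2.14% of 18053 tested genes called higher and 2.12% called lower. The 4 were TRIB3, DDIT3, HERPUD1 and DNAJB9. At unadjusted p under 0.05, 13 genes were higher and 1 was lower, against 9.49% and 9.62% of all genes. In 14 of the 39 the transplanted sample was higher in 3 of 3 Sets, against 13.2% of all genes, and in 9 every transplanted sample was above every cultured one, against 4.28%. In 9 of the 39 it was lower in 3 of 3 Sets, against 30% of all genes, and in 2 every transplanted sample was below every cultured one, against 5.55%. The module's median log2 change was 0.36, beside -0.02 for all genes tested. By role the fitted medians were 0.83 for regulators, 0.27 for amino acid and metabolic targets, 0.31 for chaperones and 0.30 for sensors.

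**Figure D1:**
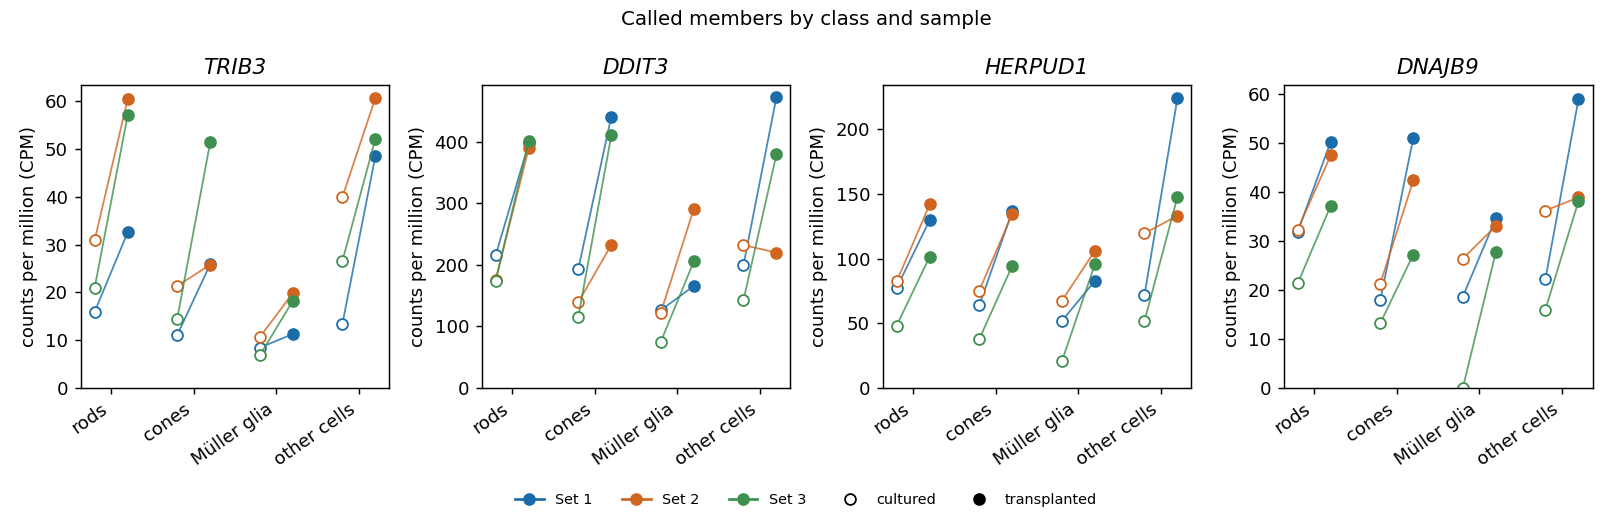
Level of the 4 called genes in CPM (y axis, from 0) in the sums of each cell class (x axis), open circles for cultured and filled circles for transplanted samples, lines joining the samples of a Set. In rods every transplanted sample lies above every cultured sample for TRIB3, DDIT3, HERPUD1 and DNAJB9.

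TRIB3 (ENSG00000101255, chr20:362835-397559, plus strand in GENCODE v29), a pseudokinase that ATF4 and DDIT3 induce and that in turn dampens ATF4 activity, had the smallest p of the module. It stood at 15.9, 30.9 and 21.0 CPM in the rods of cultured Sets 1, 2 and 3 and at 32.6, 60.5 and 57.1 CPM in the rods of transplanted Sets 1, 2 and 3. Each transplanted sample was above each cultured one, and Set 1 was the lowest Set in both groups. The log2 change was 1.29 ± 0.21 (SE; adjusted p = 0.00349 by edgeR). DDIT3 (ENSG00000175197, chr12:57516588-57521737, minus strand), which encodes CHOP, a transcription factor tied to cell death under prolonged stress, rose from 216, 176 and 174 CPM in cultured rods to 397, 389 and 401 CPM in transplanted rods. The 3 transplanted values were close to each other and all above the cultured ones (log2 change 1.24 ± 0.31, adjusted p = 0.0288 by edgeR).

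HERPUD1 (ENSG00000051108, chr16:56932048-56944863, plus strand), a membrane protein that organises the removal of misfolded protein from the endoplasmic reticulum, went from 77.2, 82.3 and 48.2 CPM in cultured rods to 129.8, 142 and 102 CPM in transplanted rods. The Set 3 sample was the lowest of its group in both groups, and the groups did not overlap (log2 change 1.03 ± 0.24, adjusted p = 0.0233 by edgeR). DNAJB9 (ENSG00000128590, chr7:108569568-108574850, plus strand), a J-domain co-chaperone of HSPA5 that restrains IRE1, went from 31.9, 32.4 and 21.3 to 50.3, 47.5 and 37.2 CPM, again without overlap and lowest in Set 3 (log2 change 0.82 ± 0.20, adjusted p = 0.0283 by edgeR). HERPUD1 is the gene shown above with both CARE and ERSE-II, whereas no searched motif was found in the windows of TRIB3, DDIT3 or DNAJB9.

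The other 5 regulators of rods did not pass the adjusted threshold, though all 7 had a positive log2 change and were higher in 3 of 3 Sets, and 6 of 7 did not overlap between groups (all but PPP1R15A). ATF3, an early stress transcription factor, stood at 74.2, 58.9 and 76.1 CPM in cultured and 92.9, 121 and 129 CPM in transplanted rods (log2 change 0.87 ± 0.25, adjusted p = 0.0563 by edgeR). ATF5 (log2 change 0.77, adjusted p = 0.0827) and CHAC1 (log2 change 0.83, adjusted p = 0.126 by edgeR), which degrades glutathione, were close in size to DNAJB9. CEBPG, a partner of ATF4 (0.58), and PPP1R15A, the eIF2α phosphatase subunit that ends the response (0.40), had the smallest log2 changes of the group.

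Calls in rods depended on the design. Without the Set as a block the edgeR test called 0 of 18053 genes and 0 of the module, with 501 genes and 3 of the module at unadjusted p under 0.05. Without the cells that meet 2 class rules, 0 of the module passed (adjusted p between 0.0698 and 0.164 for the 4 genes by edgeR), with TRIB3 at a log2 change of 0.89 and DDIT3 at 0.79. HERPUD1 was then at 0.81 and DNAJB9 at 0.82. TRIB3 passed with each Set left out in turn, while 7, 1 and 1 genes of the module passed without Sets 1, 2 and 3. With DESeq2, ATF3 passed and DNAJB9 did not, and 4 genes were called in all.

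The amino acid and metabolic targets of the ATF4 arm had 0 of 9 genes called in rods in either direction. SLC3A2, the heavy chain of several amino acid transporters, stood at 157, 180.4 and 111 CPM in cultured and 218, 176 and 124 CPM in transplanted rods, which overlap (log2 change 0.36 ± 0.26). DDIT4, an inhibitor of mTORC1 that hypoxia and glucocorticoids also induce, stood at 112, 80.2 and 70.2 and 134, 114 and 159 CPM, higher in transplanted samples without overlap, and did not pass the threshold (log2 change 0.80 ± 0.28, adjusted p = 0.111 by edgeR). PSAT1, which makes phosphoserine in serine synthesis, stood at 16.3, 19.9 and 21.3 CPM in cultured and 11.8, 13.4 and 12.8 CPM in transplanted rods, lower in each Set and without overlap (log2 change -0.43 ± 0.21, adjusted p = 0.280 by edgeR). PHGDH, the enzyme before it in the same path, had a positive log2 change (0.43), and MTHFD2 of mitochondrial folate metabolism one near 0 (-0.072). SLC7A5, the partner of SLC3A2 in leucine uptake (0.34), ASNS, asparagine synthetase (0.27), SESN2, a leucine sensor (0.15), and VLDLR, a lipoprotein receptor (-0.36), made up the rest.

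Chaperones of rods split. Besides HERPUD1 and DNAJB9, 16 of the 18 were not called. HSPA5 (BiP), the main Hsp70 of the endoplasmic reticulum and the usual mark of ATF6 activity, stood at 252, 199 and 100.4 CPM in cultured and 279.9, 243 and 224 CPM in transplanted rods. It was higher in each Set, most in Set 3, but the groups overlapped (log2 change 0.69 ± 0.32, adjusted p = 0.251 by edgeR). HSP90B1, the Hsp90 of this compartment, stood at 663, 349.6 and 386 and 488, 315 and 379 CPM (log2 change -0.042 ± 0.33). CALR, a lectin chaperone that also buffers calcium, stood at 389, 309.7 and 217 and 352, 248 and 194 CPM (log2 change -0.044 ± 0.30). In CPM both were lower in 3 of 3 Sets of rods, while the fitted changes, which allow for scaling factors between samples, were smaller than their SE. HYOU1, a large chaperone that exchanges nucleotide on HSPA5, stood at 33.8, 19.7 and 48.2 CPM in cultured and 17.5, 16.3 and 23.1 CPM in transplanted rods, lower in each Set (log2 change -0.61 ± 0.21, adjusted p = 0.113 by edgeR).

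Among the other 12 chaperones, MANF, a secreted protein of the same response (0.82), SDF2L1 (0.56), CRELD2 (0.49) and DNAJC3, an inhibitor of PERK (0.43), had the largest positive log2 changes. The disulphide isomerases PDIA6 (0.36), PDIA3 (0.085) and PDIA4 (-0.28) did not move one way. The co-chaperone DNAJB11 (0.30), the lectin CANX (-0.048) and the degradation genes SYVN1 (0.31), SEL1L (0.041) and EDEM1 (-0.21) completed the list, and none of them was called. Of the 9 chaperones with an ERSE or ERSE-II match, HERPUD1 was the 1 called.

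**Figure D2:**
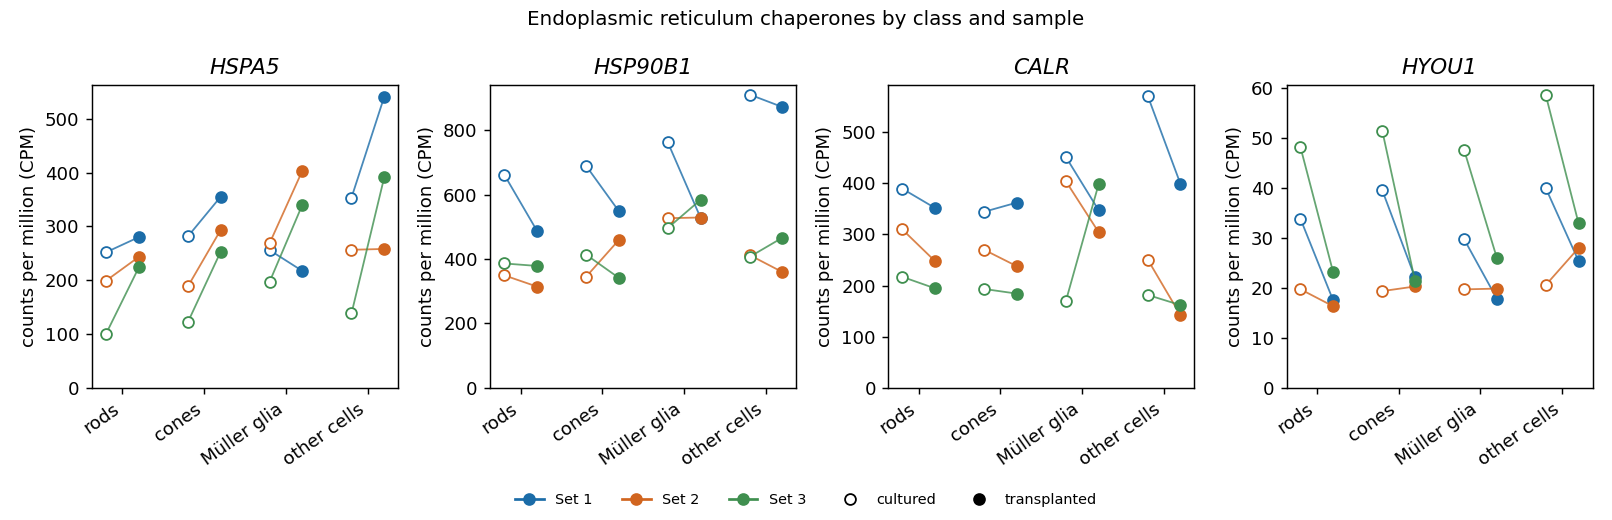
Level of HSPA5, HSP90B1, CALR and HYOU1 in CPM (y axis, from 0) by cell class, drawn as in the plot of the called genes. From cultured to transplanted, 11 of 12 lines go up for HSPA5, 4 for HSP90B1, 2 for CALR and 3 for HYOU1.

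Sensors and first factors had 0 of 5 genes called in rods. ATF4 stood at 104, 129.9 and 157 CPM in cultured and 136, 174 and 152 CPM in transplanted rods (log2 change 0.42 ± 0.25), lower only in Set 3. XBP1 had a log2 change of 0.63 ± 0.22 (adjusted p = 0.113 by edgeR), ERN1 of 0.30 and ATF6 of -0.40. EIF2AK3, the PERK gene, stood at 15.4, 125 and 171 CPM in cultured and 13.9, 83.3 and 96.95 CPM in transplanted rods. Its level in Set 1 was far below that in Sets 2 and 3 in both groups. Per the file headers, Set 1 went through another version of Cell Ranger than Sets 2 and 3, and the part of the version in this gap was not tested.

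In cones, 1 of the 39 genes was higher in transplanted samples and 0 were lower, against 0.238% and 0.318% of 17620 tested genes. DNAJB9 was the gene called, at 17.9, 21.3 and 13.2 CPM in cultured and 51.1, 42.4 and 27.2 CPM in transplanted cones. All 3 transplanted values were above the cultured ones (log2 change 1.26 ± 0.25, adjusted p = 0.0319 by edgeR). At unadjusted p under 0.05, 14 genes were higher and 3 lower, against 5.32% and 6.04% of all genes. The largest log2 change belonged to DDIT3, from 193, 139 and 115 to 441, 232 and 410.1 CPM (1.31 ± 0.36, adjusted p = 0.130 by edgeR). TRIB3 went from 11.1, 21.3 and 14.5 to 25.9, 25.8 and 51.5 CPM (log2 change 1.21 ± 0.32, adjusted p = 0.136 by edgeR), with Set 3 far above the other two. HERPUD1 stood at 63.8, 75.2 and 37.6 CPM in cultured and 137, 135 and 94.5 CPM in transplanted cones (log2 change 1.14 ± 0.27, adjusted p = 0.0801 by edgeR).

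In cones too, the regulators had the highest median of the 4 roles, a log2 change of 1.04. All 7 regulators were higher in 3 of 3 Sets (14% of all genes tested) and 6 did not overlap between groups (4.56% of all genes, higher in transplanted). ATF3 stood at 49.6, 51.6 and 63.3 CPM in cultured and 82.5, 135 and 114 CPM in transplanted cones (adjusted p = 0.0833 by edgeR). Of the whole module, 5 of 39 genes were lower in 3 of 3 Sets (19.6% of all genes) and 2 were lower without overlap (3.87%). The 9 metabolic targets had a median of 0.26 and 0 were higher in all 3 Sets. Of the 5 sensors and first factors 0 were called, with a median of 0.50. In 3 of 3 Sets 4 of them were higher (14% of all genes) and 1, ATF6, was lower (19.6%). The 2 without overlap (4.56%) were XBP1 and ATF4. ATF4 stood at 93.7, 110 and 113.5 CPM in cultured and 136.9, 171.5 and 148.9 CPM in transplanted cones (log2 change 0.58 ± 0.27, adjusted p = 0.434 by edgeR). The chaperone median was 0.28 in cones, with HSPA5 at a log2 change of 0.73 ± 0.33, HSP90B1 at -0.010 ± 0.35, CALR at -0.0010 ± 0.31 and HYOU1 at -0.74 ± 0.26. DNAJB9 lost its call without the block, and 0, 0 and 3 of the module passed without Sets 1, 2 and 3. With host-like cells left out, 5 of the module passed in cones, and without cells that meet 2 class rules 5 of 36 tested, in a fit of 2 Sets since the transplanted sample of Set 2 kept too few cones.

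In Müller glia, the main glial cell of the retina, 0 of 38 genes were called by edgeR, against 0.167% of 13783 tested genes called higher and 0.232% lower. At unadjusted p under 0.05, 5 genes were higher and 0 lower, against 2.39% and 4.3% of all genes. DDIT3 stood at 126, 122 and 74.8 CPM in cultured and 166, 291 and 206 CPM in transplanted glia (log2 change 1.11 ± 0.44). HERPUD1 stood at 51.7, 67.3 and 20.4 and 82.7, 106 and 95.5 CPM (log2 change 1.04 ± 0.39). DNAJB9 stood at 18.7, 26.4 and 0 and 34.7, 33.1 and 27.8 CPM, where the 0 of Set 3 comes from a sum of 146953 UMIs and allows up to 20.4 CPM (3 counts). PPP1R15A (log2 change 0.84) and DDIT4 (0.87) were the other two. Of the 7 regulators 4 were higher in 3 of 3 Sets (9.64% of all genes tested) and 4 did not overlap (2.59% of all genes). Both counts include TRIB3, with 1 UMI in cultured Set 3 and 3 in transplanted Set 2, and CHAC1, with 0 and 2 UMIs there. None of these values exceeds the limit of 3 counts. In the module 3 genes were lower in 3 of 3 Sets (19.7% of all genes) and 2 were lower without overlap (4.02%). DESeq2 with the same block also called 0 of the module there. The sums of this class rested on 25 and 31 cells in 1 transplanted and 1 cultured sample, and its SEs (0.36 or more for each gene) were the widest of the 4 classes for TRIB3, DDIT3, HERPUD1 and DNAJB9. Its 6 markers of dividing progenitors summed to 1565, 982 and 340 CPM in cultured and 394, 59.5 and 495 CPM in transplanted Sets 1, 2 and 3. Each cultured sum was the highest of the 4 classes. The part of these progenitors in the values of the class was not tested. Host-like cells were 66 of its 118 cells in transplanted Set 3.

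Other cells pool those progenitors, interneurons, pigment cells and host cells that met no class rule. Among them 0 of 39 genes were called by edgeR, against 0.371% of 18619 genes called higher and 0.338% lower. The make-up of this class moved with transplantation. Summed markers of amacrine cells, ganglion cells, pigment epithelium, and mural cells and fibroblasts were lower in 3 of 3 Sets. Of the pigment epithelium sum in Set 1, TTR made 2614 of 2699 CPM in cultured and 2285 of 2619 CPM in transplanted cells. RPE65 of that list was higher in each Set, from 2.98, 4.90 and 1.60 CPM in cultured to 135, 9.56 and 4.68 CPM in transplanted samples. PMEL, TYR and BEST1 were higher in Set 1 and lower in Sets 2 and 3. Red blood cell markers were at 0.157 to 3.84 CPM in cultured and 0.433 to 187 CPM in transplanted samples, and myeloid markers were higher in 3 of 3 Sets as given above. The part of this make-up in the values of the class was not tested. At unadjusted p under 0.05, 11 genes were higher and 2 lower, against 5.24% and 7.93% of all genes. TRIB3 stood at 13.4, 40.0 and 26.5 CPM in cultured and 48.6, 60.8 and 52.2 CPM in transplanted samples (log2 change 1.11 ± 0.27, adjusted p = 0.0979 by edgeR), and DESeq2 called 1 gene of the module. PDIA4 stood at 108, 35.9 and 55.3 and 60.3, 23.2 and 25.1 CPM, lower in each Set (log2 change -0.92 ± 0.23, adjusted p = 0.106 by edgeR). Regulators had a median log2 change of 0.81, with 4 of 7 higher in 3 of 3 Sets (17.8% of all genes tested) and 4 without overlap (2.82% of all genes). In the module 3 genes were lower in 3 of 3 Sets (16.6% of all genes) and 1 was lower without overlap (2.67%). HERPUD1 stood at 71.5, 119 and 51.5 CPM in cultured and 224, 133 and 148 CPM in transplanted samples, closest to each other in Set 2. Without Set 2, 5 genes of the module passed the adjusted threshold in other cells.

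**Figure D3:**
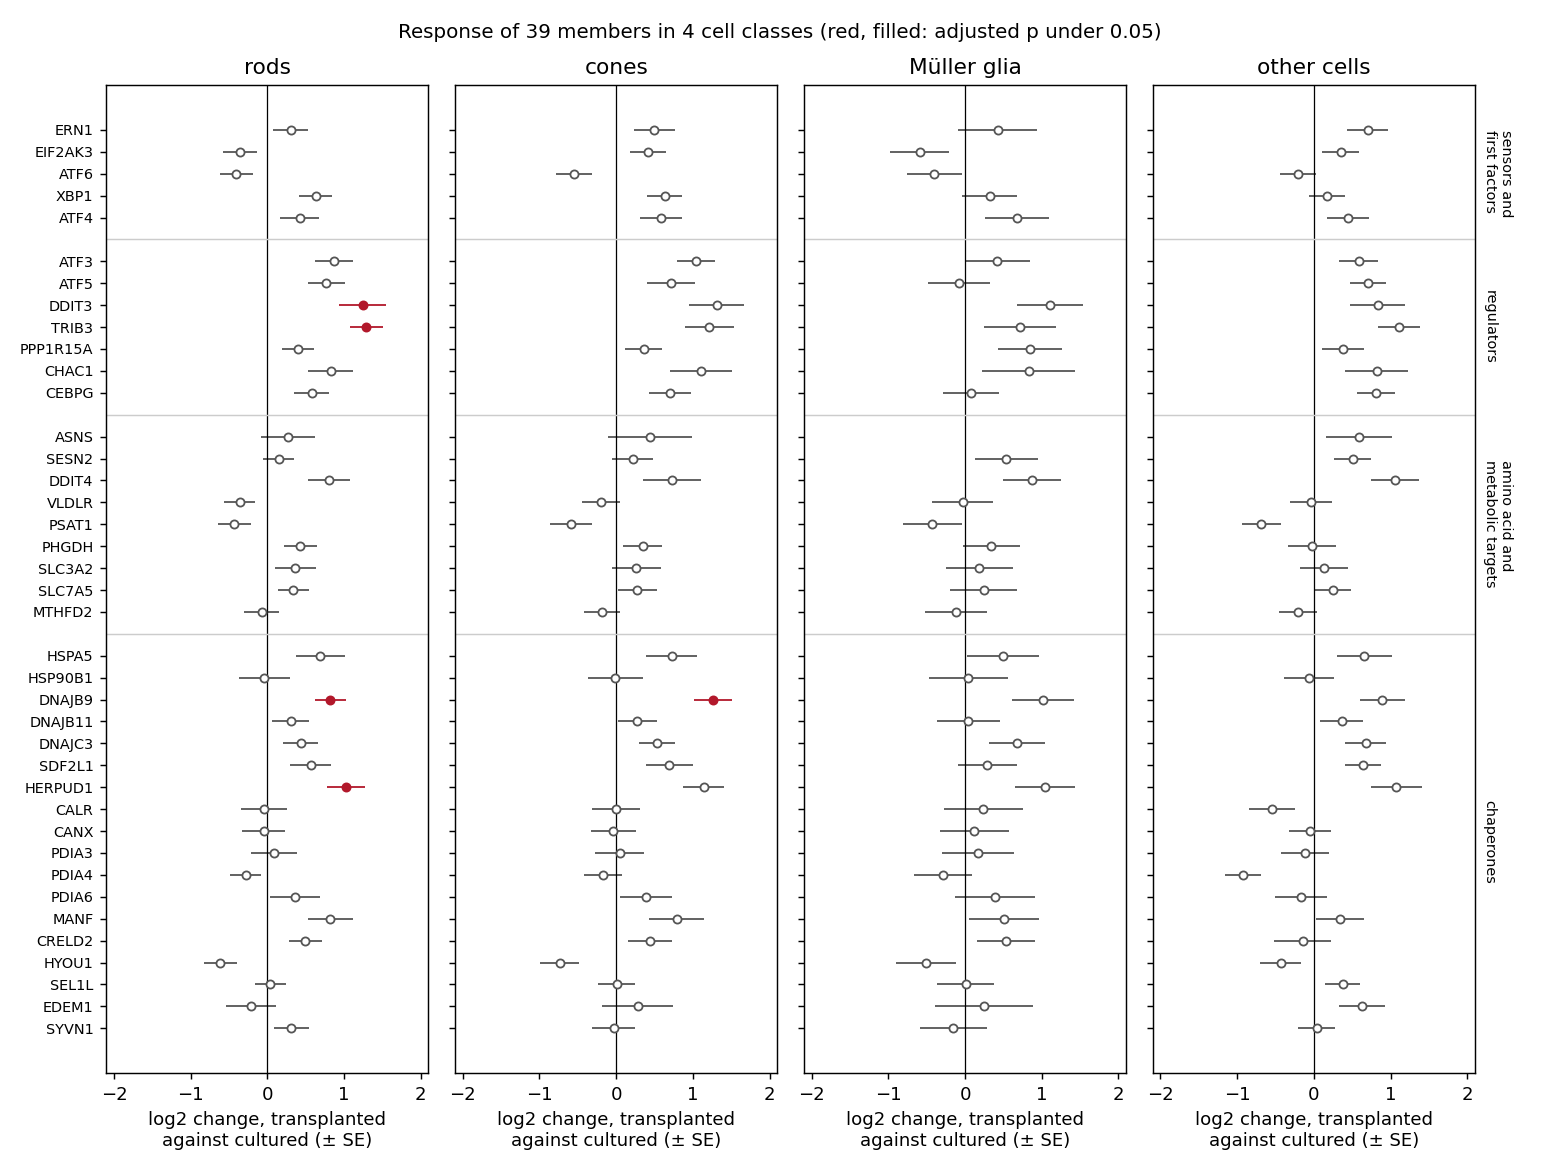
Log2 change of the 39 genes in transplanted against cultured samples (x axis, ± SE from edgeR with the Set as a block), by role from top to bottom and by cell class from left to right, with red filled points for adjusted p under 0.05. Regulators lie mostly to the right of 0 in every class, metabolic targets and chaperones on both sides.

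Across the 4 classes, 3 genes were higher in the transplanted sample of every Set in every class: TRIB3, HERPUD1 and DNAJB9. Of 13697 genes tested in all classes, 1.61% were higher in that way and 2.86% lower. In Müller glia this rests on few molecules. In cultured Set 3 the glia held 1 UMI of TRIB3, 0 of DNAJB9 and 3 of HERPUD1, all within the limit of 20.4 CPM that 3 counts set there, and in transplanted Set 2 they held 3, 5 and 16 UMIs. PSAT1 was the gene of the module that was lower throughout. In cones it stood at 15.8, 21.4 and 18.5 CPM in cultured and 11.5, 14.8 and 9.34 CPM in transplanted samples (log2 change -0.59 ± 0.27). The same gene stood at 31.6, 33.0 and 25.9 and 25.1, 15.7 and 16.7 CPM in other cells (log2 change -0.69 ± 0.25) and at 25.1, 30.8 and 40.8 and 18.3, 19.9 and 22.6 CPM in Müller glia (log2 change -0.42 ± 0.39). PSAT1 passed the adjusted threshold in 0 of the 4 classes. The classes of a sample come from 1 library, so they are not independent repeats.

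The contrast of the arms was computed within each Set as the median of log2 changes on the scale of CPM plus 1, with no test. The chaperone median lay below the median of the ATF4 arm in 11 of 12 pairs of class and Set, the difference running from -0.44 (rods, Set 2) to 0.21 (rods, Set 3, the exception). The regulators stood apart within the ATF4 arm. Their median was above 0 in 12 of 12 pairs (0.32 to 1.30) and above that of the chaperones (-0.16 to 0.80) and of the metabolic targets (-0.14 to 0.88) in 12 of 12. The upper end of each of these ranges came from Müller glia of Set 3, where the cultured sum held 31 cells. The classes of a Set come from the same libraries, so the 12 pairs are not independent. All genes tested had medians between -0.29 and 0.095, the lowest in Set 3 rods, where the cultured sample had a scaling factor of 1.41 and the transplanted one of 1.10.

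The Sets differed in their chaperones. In rods the chaperone median was 0.053, -0.16 and 0.66 in Sets 1, 2 and 3, and the regulator median 0.32, 0.72 and 0.79. In Müller glia the chaperone median was -0.15, 0.0078 and 0.80, and in other cells 0.27, -0.089 and 0.56. Set 3 was the highest of the 3 in each of the 4 classes for chaperones. Averaged over the 3 Sets of rods, the chaperone arm minus the ATF4 arm was -0.13, and without Set 2 it was 0.019. It was -0.15 in cones, -0.30 in Müller glia and -0.24 in other cells.

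**Figure D4:**
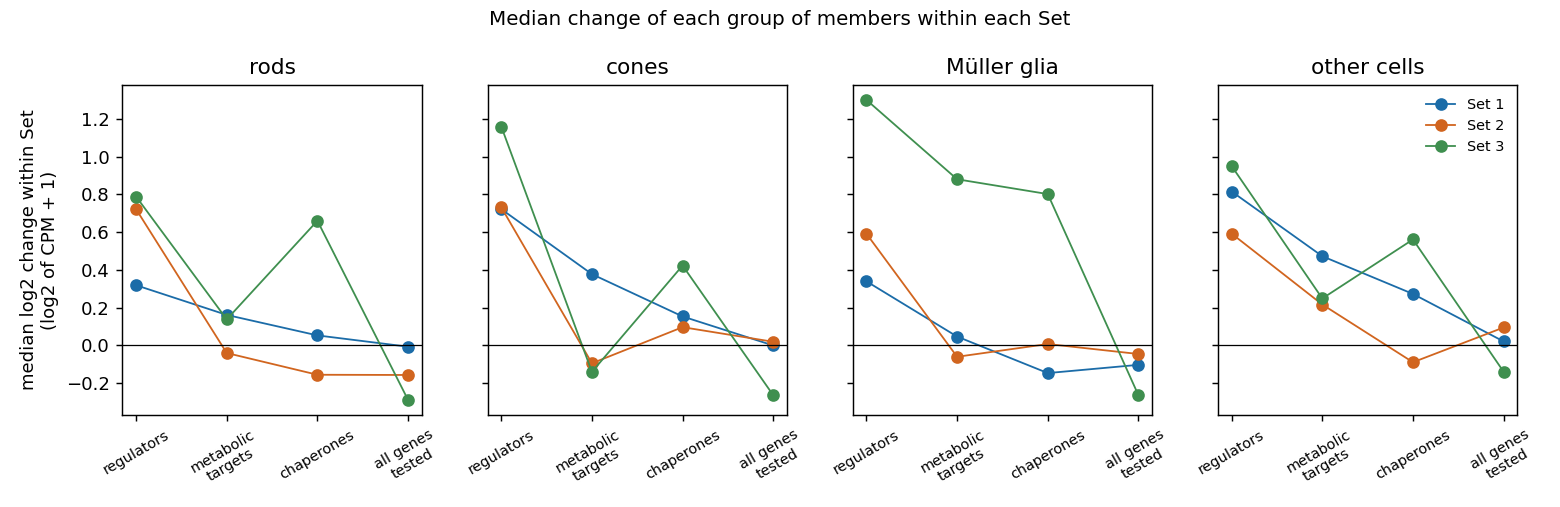
Median log2 change within a Set (y axis, from CPM plus 1) of regulators, metabolic targets, chaperones and all genes tested (x axis), one line per Set and one panel per cell class. The regulator point is above the chaperone point in 12 of 12 lines, and Set 3 has the highest chaperone point of every panel.

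Rods and cones were then compared for their response itself, with each sample as a block. EIF2AK3 was the 1 gene of 39 whose response differed, against 0.47% of 19556 tested genes in either direction. It stood at 9.61, 85.3 and 104 CPM in cultured and 12.5, 136 and 106 CPM in transplanted cones, higher in each Set, while in rods it was lower in each Set. The response of cones minus that of rods was 0.79 ± 0.18 on the log2 scale (adjusted p = 0.00402 by edgeR). Without Set 1 or without Set 3 this difference no longer passed (0.89 and 0.75, adjusted p = 0.414 and 0.5196 by edgeR), and without the cells that meet 2 class rules it was 1.39 in 2 Sets (adjusted p = 0.0265 by edgeR). DNAJB9 was larger in cones by 0.51 ± 0.20 (adjusted p = 0.572 by edgeR), and TRIB3, DDIT3 and HERPUD1 differed between the 2 photoreceptor classes by -0.081 ± 0.21, 0.079 ± 0.20 and 0.12 ± 0.18. Between rods and Müller glia, 0 of 39 genes differed in response by edgeR (0 also at unadjusted p under 0.05), against 0.132% of 18204 genes. TRIB3 there differed by -0.47 ± 0.39, with an SE close to its size.

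Levels of the module were then compared between classes of the cultured samples. In cultured cones 0 of 39 genes were higher and 10 lower than in cultured rods (edgeR with the Set as a block), against 8.23% and 6.94% of 17905 tested genes. ERN1 was the most displaced, at 20.8, 47.5 and 82.7 CPM in cultured rods and 11.9, 25.5 and 27.7 CPM in cultured cones (log2 difference -0.91 ± 0.11, adjusted p = 1.12e-05 by edgeR). DNAJB9 (-0.63), DDIT4 (-0.55), EIF2AK3 (-0.55) and SESN2 (-0.49) followed, then TRIB3, ATF5, ATF3, SLC3A2 and DDIT3 with log2 differences between -0.46 and -0.27. Of the 10 genes, 4 were regulators and 1 was a chaperone. Median depth per cell in cultured Sets 1, 2 and 3 was 3316, 6488 and 4063 UMIs in rods and 3310, 10320 and 8132 UMIs in cones. The part of depth in these differences was not tested.

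In cultured Müller glia 8 genes were higher and 7 lower than in cultured rods, against 13.8% and 13.1% of 16809 tested genes. The part of the dividing progenitors in this class, whose markers are given above, was not tested here either. ERN1 was again lowest, at 6.09, 9.74 and 6.80 CPM in the glia (log2 difference -2.06 ± 0.20), followed by TRIB3 at 8.40, 10.6 and 6.80 CPM (-1.20 ± 0.20, adjusted p = 9.28e-05 by edgeR). The 6.80 CPM of Set 3 is 1 UMI for either gene, below the limit of 20.4 CPM that 3 counts set in that sum. ATF3 was higher in glia, at 131, 152 and 177 CPM against 74.2, 58.9 and 76.1 CPM in rods (1.10 ± 0.16). The enzymes of serine synthesis PHGDH (0.67) and PSAT1 (0.65), which retinal glia are known to express, the isomerases PDIA4 (0.70) and PDIA3 (0.54), SDF2L1 (0.63), PPP1R15A (0.62) and EIF2AK3 (0.44) were higher as well. DDIT4, DDIT3, SLC7A5, DNAJB9 and HERPUD1 were lower, by -0.80 to -0.46. Without the Set as a block 0 genes of the module were called in either comparison of cultured classes. With Sets 1, 2 and 3 left out in turn, 4, 5 and 6 genes were called for cones, and 4, 2 and 15 for Müller glia. Without the cells that meet 2 class rules the counts were 13 and 9.

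**Figure D5:**
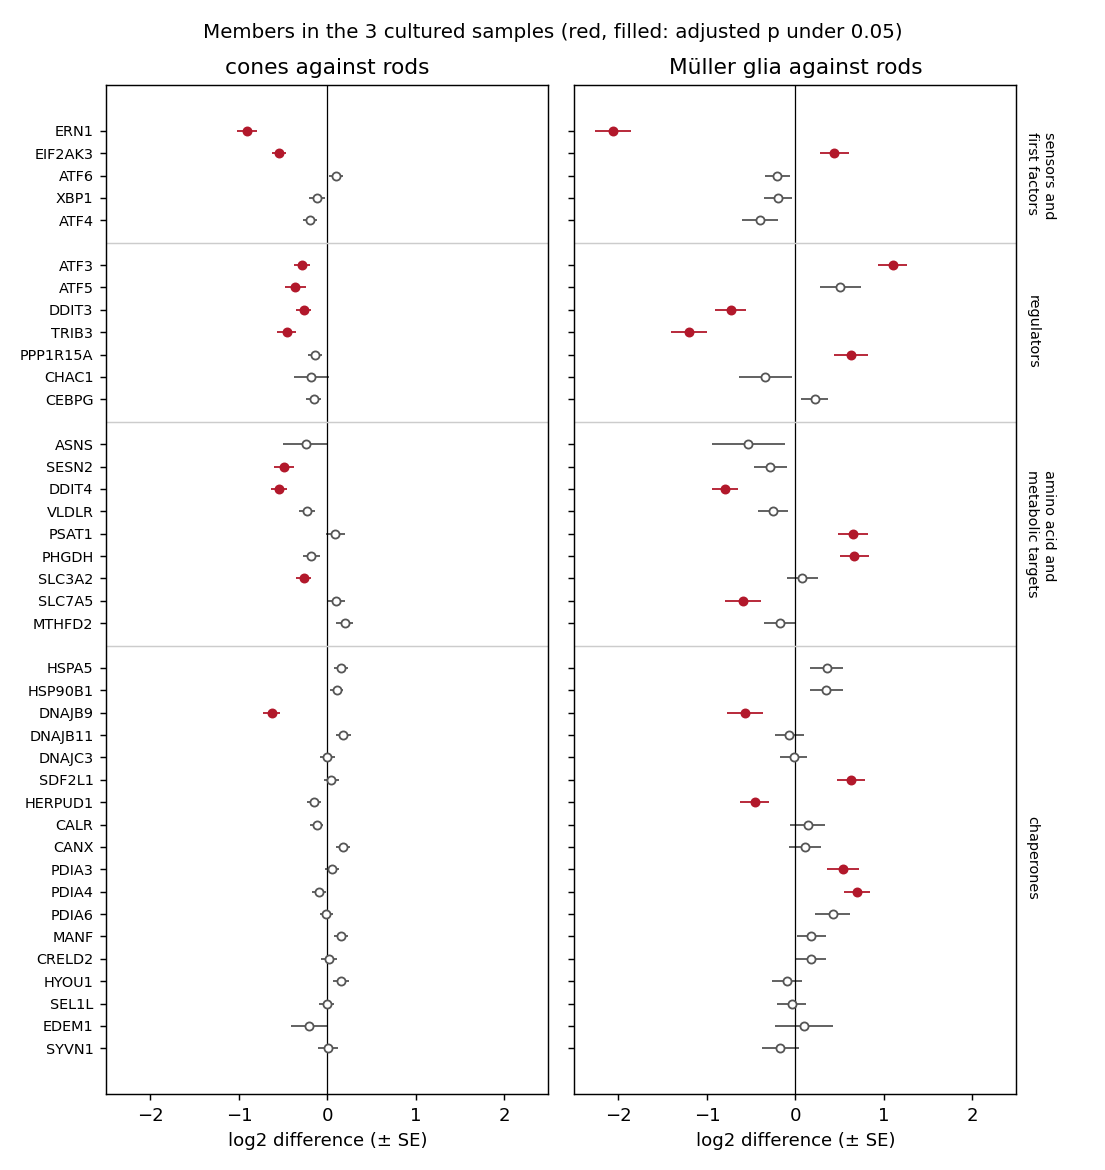
Log2 difference (x axis, ± SE) of the 39 genes between classes of the 3 cultured samples, cones against rods on the left and Müller glia against rods on the right, red and filled for adjusted p under 0.05. ERN1 is the leftmost point of both panels, and the regulators ATF3 and PPP1R15A lie right of 0 in Müller glia and left of it in cones.

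Single cells were read for TRIB3 after each cell had been thinned to 1000 UMIs, as a description. A TRIB3 molecule was found in 1.61, 3.55 and 1.97% of rods of cultured Sets 1, 2 and 3 and in 3.69, 5.26 and 4.39% of rods of the transplanted samples, and without thinning in 6.09, 27.0 and 12.1% and in 16.6, 24.0 and 28.3%. Median depth of rods was 3316 to 6488 UMIs in cultured and 4527 to 5913 UMIs in transplanted samples. No class here is known to lack TRIB3, and in cultured Müller glia of Sets 1 and 2 the thinned share was 0.817 and 1.04%. In rods with a TRIB3 molecule, the other 6 regulators summed to 1.75 to 3.15 times their mean in the remaining rods of the same sample. The metabolic targets summed to 0.41 to 5.87 times theirs, above 1 in 5 of 6 samples, and the chaperones to 0.83 to 1.54 times theirs, with as few as 7 TRIB3-positive rods in cultured Set 3 and 9 in transplanted Set 2.

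Other genes of the pathway, listed apart from the module, had at most 1 call per list and class. Of 32 further ATF4 targets (31 tested), 0 were higher and 1 was lower in rods, where 2.12% of all genes were lower, and the same counts held in other cells, where 0.338% were. The gene was SLC7A11, the cystine transporter, at 11.4, 50.6 and 37.1 CPM in cultured and 2.72, 11.3 and 10.5 CPM in transplanted rods (log2 change -1.83 ± 0.22, adjusted p = 0.000376 by edgeR). In other cells it stood at 29.3, 56.8 and 36.1 and 7.64, 21.8 and 19.8 CPM (log2 change -1.43 ± 0.29, adjusted p = 0.0472 by edgeR). SLC7A11, a target of ATF4, was lower in each Set in the same rod sums in which TRIB3 and DDIT3 were higher. It was not read in single cells. GDF15, a secreted stress factor, was not called (log2 change 0.96 ± 0.26 in other cells). The list's median log2 change was -0.087 in rods, beside -0.02 for all genes.

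Of 30 further genes of endoplasmic reticulum quality control, EDEM2, a mannose-trimming factor of protein removal, was the 1 called in rods (2.14% of all genes were called higher there), at 11.5, 15.5 and 9.56 CPM in cultured and 21.2, 20.2 and 17.6 CPM in transplanted samples (log2 change 0.85 ± 0.22, adjusted p = 0.0358 by edgeR). ERO1B, an oxidase that drives disulphide formation, had a log2 change of 0.65 in rods and 1.22 in cones, and PDIA5 of 0.72 in rods, none of these called. The list had 0 calls in the other 3 classes, with 0 to 3 genes at unadjusted p under 0.05 in each direction. Of 18 further sensors and regulators (17 tested), 0 were called in any class, with up to 3 higher and 0 lower at unadjusted p under 0.05. CREBRF, a regulator linked to the unfolded protein response, had the smallest p of them (log2 change 0.99 ± 0.25 in other cells, adjusted p = 0.106 by edgeR).

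Hypoxia targets were listed because DDIT4 and VLDLR also respond to low oxygen. Of 14 (13 tested), 1 was higher and 0 lower in rods, again beside 2.14% and 2.12% of all genes. NDRG1 stood at 23.9, 33.6 and 57.0 CPM in cultured and 45.0, 54.2 and 75.3 CPM in transplanted rods (log2 change 0.84 ± 0.20, adjusted p = 0.0234 by edgeR). The list's median log2 change in rods was 0.087, beside 0.80 for DDIT4 and -0.36 for VLDLR. None of the 13 was called in cones, Müller glia or other cells by edgeR. At unadjusted p under 0.05, 1 was higher and 2 lower in cones, 1 higher and 0 lower in Müller glia, 2 higher and 0 lower in other cells, and 1 higher and 1 lower in rods.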

How the data were processed

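Per the labels' protocols the 6 libraries were 10x Genomics 3′ single-cell libraries. The authors deposited raw UMI counts per gene and cell, made with Cell Ranger 6.0.2 (Set 1) or 7.1.0 (Sets 2 and 3) per the file headers and with GRCh38 per the submitters' processing notes. Whether intronic reads were counted is not given in the sources used here, and it can shift the level of a gene between Sets.

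Cells with at least 1000 UMIs, 500 genes and at most 20% mitochondrial UMIs were kept. Scrublet's own threshold marked at most 2 cells per sample, so the highest scores were removed at 0.8% per 1000 cells. Counts were summed per sample and class (classes of at least 20 cells) and tested with edgeR 4.0.16 in R 4.3.3 (TMM, filterByExpr, quasi-likelihood) with the Set as a block, with Benjamini-Hochberg adjustment over all genes tested. The design text says that a Set shares an organoid batch. Deviations of same-Set samples from their group means correlated over genes at 0.91, 0.48 and 0.80 in rods and at 0.064 or more in every class. Across Sets, cultured Set 2 correlated with transplanted Set 3 at 0.42 in rods, 0.35 in cones (its own pair 0.28) and 0.17 in Müller glia (its own pair 0.064), so the data alone do not set Set 2 apart from Set 3. The design text calls the Sets independent experiments and does not give the number of dogs. With the Set as a block, level differences between Sets are taken out. The p-values then rest in part on how far the difference of a gene within a Set varied between these 3 experiments. They rest in part on the spread of the other genes tested, since edgeR draws the spread of each gene towards a shared one. A small p therefore does not measure the variation of that gene between the experiments alone. The tests were tried on simulated counts with known changes, at a fixed level of spread between samples. Of simulated 2-fold changes, 40% were called in rods, 35% in cones, 11.3% in Müller glia and 38% in other cells. Of 4-fold changes, 88.2% or more were called in each class. A gene that changes about 2-fold can therefore go uncalled, most of all in Müller glia.

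The members, lists and classes were chosen with earlier results of these data known. Genes given by sample were those called in any class, the 2 with the highest mean CPM of each role, and those moving one way in every Set and class. HSPA5, HYOU1, PDIA4 and ERN1 were added after their values were seen. Of each other list up to 4 genes with the smallest p could be named. Alternatives were DESeq2 1.42.0, RLE size factors, no block, no count filter, other cell filters and classes, and each Set left out. Gene positions come from GENCODE v29, which matched 34645 of 36601 genes.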

Additional observations from a re-analysis of the deposited data

Results flagged for a closer look

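EIF2AK3, the gene of the sensor kinase PERK, stood out because its response differed between rods and cones. The response of cones minus that of rods was 0.79 on the log2 scale (adjusted p = 0.00402 by edgeR with each sample as a block), with lower values in transplanted rods and higher values in transplanted cones in 3 of 3 Sets. Its level in Set 1 was 9.61 CPM in cultured cones and 15.4 CPM in cultured rods, far below Sets 2 and 3, and Set 1 was processed with another Cell Ranger version. The part of that version in the levels was not tested. The difference was 0.89 without Set 1 (adjusted p = 0.414 by edgeR) and 0.75 without Set 3 (adjusted p = 0.5196 by edgeR).

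SEL1L, a partner of the ubiquitin ligase SYVN1 in the removal of misfolded protein, had lower CPM in the transplanted cones of every Set and higher CPM in the transplanted other cells of every Set. The fitted log2 change in cones minus that in other cells was -0.37. This difference was not tested. The fitted log2 changes were 0.0049 ± 0.24 in cones and 0.38 ± 0.23 in other cells, and neither was called by edgeR.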

How the results depend on the processing

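Without the replicate block, 0 genes of the module were called in rods, in cones and in either comparison of cultured classes, and 0 of all genes tested in rods, against 769 with it. The pairing by Set changed no count in Müller glia or other cells, where 0 were called both ways. Without cells that meet 2 class rules, 0 were called in rods (336 of all genes), 5 in cones (2 Sets), 9 for cultured Müller glia and 2 for the difference between rods and cones, and the chaperone arm minus the ATF4 arm was -0.73 in cones. DESeq2 called 4 in cones and 1 in other cells (313 of all genes, against 132 by edgeR), and no filter on low counts gave 3 and 1 (365 of all genes in cones, against 98, and 433 in other cells). Without host-like cells 5 were called in cones (268 of all genes), 1196 of all genes were called in rods, and the arm difference in Müller glia was -0.45 (2 Sets).

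With 1 Set left out, calls ranged from 1 to 7 in rods (176 to 978 of all genes), 0 to 3 in cones, 0 to 5 in other cells, 0 to 1 for the difference between rods and cones, 4 to 6 for cultured cones and 2 to 15 for cultured Müller glia. The arm difference ranged from -0.30 to 0.019 in rods. No result for a single gene reversed. With a Set left out, 67 of these kept their side of the threshold, 5 gained a call and 54 lost one. Under the other alternatives the numbers were 182, 12 and 49. Müller glia with a class threshold of 5 UMIs were not run, since fewer than 2 Sets kept 20 cells in both groups. Depth limits Müller glia most, where 3 counts amount to 20.4 CPM in cultured Set 3.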
